A study of Mus musculus with 9 samples.

Results

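Lysosomal genes were followed in mouse brain as a set of 48: 18 hydrolases other than the cathepsins, 3 genes for lipid-transfer activators and progranulin, 10 membrane proteins, 6 genes of the membrane sector (V0), 6 of the catalytic sector (V1) and 2 of the accessory proteins of the vacuolar proton pump, and the 3 transcription factors Tfeb, Tfe3 and Mitf. They were chosen by gene symbol, with no measured value in the rule but with earlier results of these data known. All 48 were found among the 56748 genes of the count table. Of these, 47 were among the 17575 genes with enough counts to be tested. The lowest count of a tested member in any library was 27 (Slc11a1), and Atp6v0d2 was too sparse for the test and is described by its counts.

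Transcripts were measured by bulk RNA sequencing of whole brain without the cerebellum from mice 7 months of age, with 3 libraries, each titled as a separate mouse, for each of 3 genotypes. Wild-type mice carried no transgene per the labels. 5xFAD mice carry transgenes that include mutant human APP, expressed in neurons from the Thy1 promoter, and develop amyloid plaques. 5xFAD/Cd5l tg/wt mice carry the 5xFAD transgenes and, in addition, 1 transgenic allele (tg/wt) that forces expression of mouse CD5L, a secreted scavenger-receptor protein of macrophages, from the human PDGF-B promoter. No wild-type mouse with the Cd5l transgene was among the groups, so that an effect of the transgene could be compared only on the 5xFAD background. Sex and strain are not labelled.

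The libraries held 14575416 to 17865150 counts, of which the 48 genes took 0.811% to 0.909%. Cd5l had 0, 1 and 0 counts in the wild-type libraries, 0 in each of the 5xFAD libraries, and 2553, 2822 and 3551 in the 5xFAD/Cd5l tg/wt libraries, which matches the labelled genotypes. Neuronal markers were high in every library, with a summed level of 7398 to 8201 CPM (counts scaled to the effective library size). Wild-type library 3 stood apart with 488 CPM of cerebellum and hindbrain markers against 14.6 to 69.0 CPM elsewhere. The 5xFAD/Cd5l tg/wt libraries 2 and 3 were set apart as lowest in oligodendrocyte markers, with 4001 and 5361 CPM against 5638 to 7026 CPM elsewhere. Of these 2, library 3 lay close to the other libraries, so that setting it apart is uncertain. Results that rest on these 3 libraries are also given without them, in a fit that keeps 2 wild-type libraries, 3 5xFAD libraries and 1 5xFAD/Cd5l tg/wt library. In that fit the lone 5xFAD/Cd5l tg/wt library is assumed to vary like the other groups, so that its comparisons have no replicate of their own.

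Lysosomes are the acidic compartments in which cells break down proteins, glycans and lipids. The vacuolar ATPase pumps protons into the lumen, soluble hydrolases act at the resulting low pH, and membrane proteins shield the limiting membrane and export the products. Many of these genes share a promoter element, the CLEAR element, that is bound by TFEB and its relatives TFE3 and MITF, and in the brain microglia, the resident macrophages, have a large lysosomal system that takes up debris around plaques.

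Per kilobase of gene length, which allows genes to be set side by side, the tested members ran from 0.494 to 628 RPKM (CPM divided by the gene length in kilobases) in wild-type brain. Psap, the precursor of the saposins that present sphingolipids to hydrolases, had the highest level at 628 RPKM. Lamp1, the main glycoprotein of the limiting membrane, followed at 135 RPKM, and the pump subunit genes Atp6v1b2 at 129 RPKM and Atp6v0d1 at 109 RPKM. The pump was expressed mostly through widely used subunits: Atp6v0a1 stood at 74.2 RPKM against 2.86 RPKM for its paralog Tcirg1, which encodes the a3 subunit known from osteoclasts and macrophages. Lowest among the tested members was Slc11a1, the divalent metal exporter of phagosomes, at 0.494 RPKM. The transcription factor genes were low as well, with 3.88 RPKM for Tfe3, 1.74 RPKM for Mitf and 1.59 RPKM for Tfeb.

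**Figure D1:**
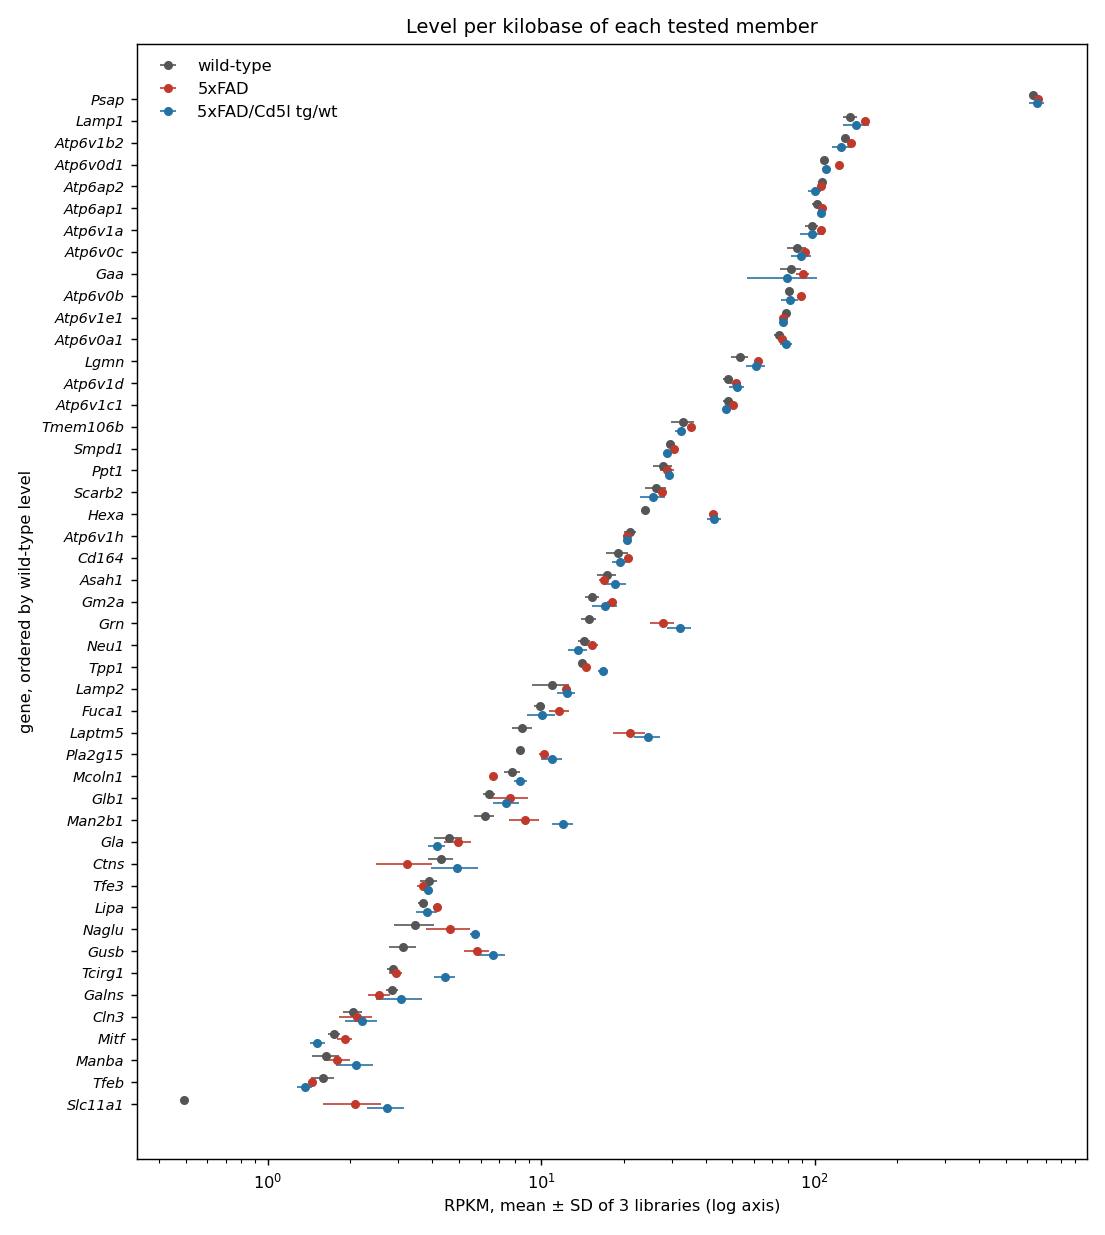
Level of each of the 47 tested members in RPKM (log axis), as mean ± SD of 3 libraries per genotype, ordered by the wild-type mean from Psap at 628 RPKM to Slc11a1 at 0.494 RPKM. The genotypes overlie each other for most pump subunits. Both transgenic genotypes stand apart from wild-type for Hexa, Grn, Laptm5, Man2b1, Gusb and Slc11a1. For Tcirg1 the 5xFAD/Cd5l tg/wt libraries stand apart from wild-type and 5xFAD.

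Wild-type and 5xFAD brains were set side by side first, to see how lysosomal transcripts differ in the amyloid model. Of the 47 tested members, 6 rose and none fell at an adjusted p under 0.05: the hydrolase genes Hexa, Gusb and Man2b1, the progranulin gene Grn, and the membrane protein genes Laptm5 and Slc11a1. Among all tested genes 1.06% rose and 2.44% fell in this comparison. The rises ran from 1.40-fold (Man2b1) to 4.21-fold (Slc11a1). In 18 members all 3 5xFAD libraries lay above all 3 wild-type libraries, and in 2 all lay below, against 10.4% and 13.9% of all tested genes. The median log2 fold change was 0.09 over the 47 members and -0.01 over all tested genes, and 38 members had positive values, against 47.8% of all genes. Log2 fold changes are given ± SE from a fit of all 9 libraries with n = 3 per genotype, and adjusted p-values are from edgeR's quasi-likelihood test.

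Among the hydrolases 3 of 18 rose, none fell and 15 did not pass. Hexa, which encodes the alpha chain of beta-hexosaminidase and clears the ganglioside GM2 (chromosome 9, 59446823 to 59472392, GRCm39), had 46.6, 49.0 and 48.3 CPM in the wild-type libraries, 86.4, 81.4 and 87.6 CPM in the 5xFAD libraries and 86.2, 80.4 and 90.2 CPM in the 5xFAD/Cd5l tg/wt libraries. The 5xFAD libraries were all above the wild-type libraries, with a log2 fold change of 0.83 ± 0.07 (adjusted p = 5.32e-05), and all 3 lay within the range of the 5xFAD/Cd5l tg/wt libraries. Hexa overlaps Tmem202, which lies on the other strand and had a mean of 2.07 CPM. Whether the counting used strand is not stated, so that reads of overlapping genes could be mixed.

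Gusb, the beta-glucuronidase that trims glycosaminoglycans (chromosome 5, 130017852 to 130031890), had 16.0, 13.8 and 12.9 CPM in wild-type, 26.9, 23.5 and 29.0 CPM in 5xFAD and 32.6, 26.4 and 31.5 CPM in 5xFAD/Cd5l tg/wt libraries. It rose by 0.89 ± 0.12 in 5xFAD (adjusted p = 0.00148), and each 5xFAD library was above each wild-type library. Man2b1, the alpha-mannosidase of glycoprotein breakdown (chromosome 8, 85809899 to 85824911), stepped up through the 3 genotypes without overlap. Its libraries had 52.6, 51.8 and 44.9 CPM in wild-type, 67.7, 62.4 and 79.4 CPM in 5xFAD, and 106, 89.3 and 93.7 CPM in 5xFAD/Cd5l tg/wt. Its rise in 5xFAD was 0.49 ± 0.10 (adjusted p = 0.0231), which did not hold without wild-type library 2 or 3 or 5xFAD library 1 or 3 (adjusted p up to 0.0954).

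The other 15 hydrolases had log2 fold changes from -0.16 to 0.42 in 5xFAD, and 13 of them were positive. Those with the smallest p were Pla2g15, a phospholipase of the lysosomal lumen, at 0.29 ± 0.09 (adjusted p = 0.113), the asparagine endopeptidase gene Lgmn at 0.22 ± 0.08 (0.157), and Naglu, which removes N-acetylglucosamine from heparan sulfate, at 0.42 ± 0.16 (0.204). Pla2g15 and Lgmn were higher in every 5xFAD library than in any wild-type library, while the Naglu libraries overlapped.

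Grn encodes progranulin, a secreted and lysosomal protein that regulates hydrolases and whose loss causes frontotemporal dementia or a storage disease (chromosome 11, 102321141 to 102327874). Its libraries had 51.7, 55.5 and 48.9 CPM in wild-type, 94.5, 88.0 and 107 CPM in 5xFAD and 120.3, 98.5 and 116 CPM in 5xFAD/Cd5l tg/wt mice. The rise in 5xFAD was 0.89 ± 0.10 (adjusted p = 0.00028), with no overlap between wild-type and 5xFAD. Grn overlaps Fam171a2, also on the other strand, and its count is uncertain to that extent. Fam171a2 itself stood at 77.6 CPM in wild-type and 85.0 CPM in 5xFAD libraries and did not pass (log2 fold change 0.13 ± 0.09, adjusted p = 0.538). Of the 2 activators, neither passed: Psap, the most abundant member, was at 0.07 ± 0.06 and Gm2a, the GM2 activator that works with beta-hexosaminidase, at 0.24 ± 0.09 (adjusted p = 0.190).

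Of 10 membrane proteins 2 rose, none fell and 8 did not pass. Laptm5 encodes a lysosomal protein of blood-derived and microglial cells that routes receptors to degradation (chromosome 4, 130640436 to 130663452). It had 34.1, 33.6 and 29.1 CPM in wild-type, 81.3, 69.1 and 90.3 CPM in 5xFAD and 103, 82.1 and 94.1 CPM in 5xFAD/Cd5l tg/wt libraries, and it rose by 1.31 ± 0.11 in 5xFAD (adjusted p = 5.32e-05). Slc11a1, also known as Nramp1, exports iron and manganese from phagosomes (chromosome 1, 74414354 to 74425221). Its libraries had 1.86, 1.76 and 1.87 CPM in wild-type, 7.35, 6.12 and 9.77 CPM in 5xFAD and 10.1, 8.56 and 11.6 CPM in 5xFAD/Cd5l tg/wt mice, and the log2 fold change of 2.07 ± 0.22 in 5xFAD (adjusted p = 0.000225) was the largest among the tested members. Neither gene had overlapping libraries between wild-type and 5xFAD.

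The structural membrane proteins did not pass in 5xFAD against wild-type. Lamp1 had 348, 350.3 and 384 CPM in wild-type and 407, 399.7 and 417 CPM in 5xFAD libraries, which do not overlap, at 0.18 ± 0.08 (adjusted p = 0.291). Mcoln1, the calcium and iron channel of the lysosomal membrane, and Ctns, the cystine exporter, were the 2 members with every 5xFAD library below every wild-type library. Mcoln1 had a log2 fold change of -0.23 ± 0.08 (adjusted p = 0.130), and Ctns one of -0.42 ± 0.19 (adjusted p = 0.296).

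In the fit without the 3 libraries that stood apart, with 2 wild-type and 3 5xFAD libraries, 10 members passed in 5xFAD against wild-type, namely the same 6 with Lgmn, Lamp1, Lamp2 and Atp6v1a added, all higher in 5xFAD. In that fit 6.20% of all genes passed in either direction, against 3.5% with all libraries.

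**Figure D2:**
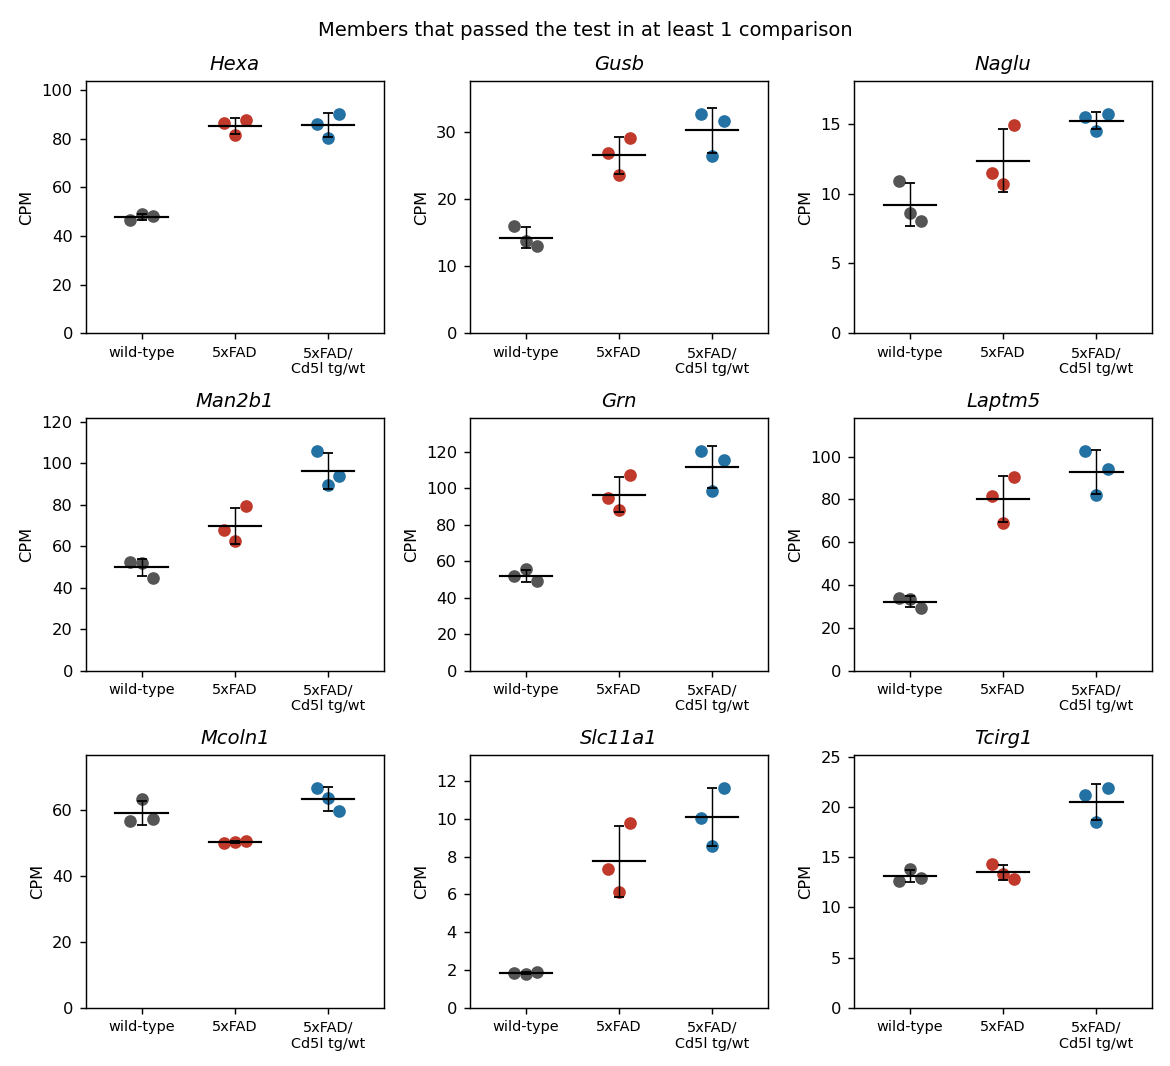
CPM in each library of the 9 members that passed in at least 1 of the 3 comparisons. Points are libraries, horizontal bars are means and error bars SD (n = 3). Hexa, Gusb, Grn, Laptm5 and Slc11a1 step up between wild-type and 5xFAD, Tcirg1 and Mcoln1 between 5xFAD and 5xFAD/Cd5l tg/wt, and Man2b1 at both steps.

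Microglial markers moved with these rises. Of 15 markers of microglia, 14 rose in 5xFAD against wild-type, and none of the 15 was at 0 in any library. Their summed level was 343 to 412 CPM in wild-type, 729 to 907 CPM in 5xFAD and 837 to 986 CPM in 5xFAD/Cd5l tg/wt libraries. The receptor gene Trem2 was at 2.02 ± 0.16, its adaptor Tyrobp at 2.08 ± 0.16, and C1qa of the complement cascade at 1.38 ± 0.12. Of 7 markers of plaque-associated microglia 4 rose, with sums of 106 to 123 CPM in wild-type, 172 to 237 CPM in 5xFAD and 195 to 260.4 CPM in 5xFAD/Cd5l tg/wt libraries. Astrocyte markers were higher as well, with sums of 4139 to 4585 CPM in wild-type, 5191 to 5330 CPM in 5xFAD and 5276 to 5522 CPM in 5xFAD/Cd5l tg/wt libraries. All 7 had positive log2 fold changes in 5xFAD against wild-type and 1 passed, the filament gene Gfap at 1.57 ± 0.12. Of 9 neuronal markers 0 passed, and 0 had an unadjusted p under 0.05. Markers of blood monocytes and neutrophils summed to at most 0.866 CPM in any library, and of 5 markers of border macrophages 0 passed and 1 had an unadjusted p under 0.05. In bulk tissue more microglia and more RNA per microglial cell cannot be told apart, and the part of the microglial and astrocyte markers in the rise of the 6 members was not tested. Nuclear-retained RNAs such as Malat1, followed here as a possible sign of RNA quality, summed to 3258 to 4377 CPM in wild-type and 1486 to 1753 CPM in 5xFAD libraries. Their part in the calls of this comparison was not tested either.

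Genes of the proton pump did not pass in this comparison. Of the 13 tested genes, 0 passed in 5xFAD against wild-type by edgeR, DESeq2 or limma-voom, and 95% confidence intervals of the log2 fold changes lay within -0.20 and 0.30 for every one of them. At an unadjusted p under 0.05 there were 2, Atp6v0d1 and Atp6v0b, both in V0. Atp6v0d1, which couples the membrane ring to the stalk, had 196, 198 and 190.1 CPM in wild-type, 227, 218 and 215 CPM in 5xFAD and 194, 198 and 199.97 CPM in 5xFAD/Cd5l tg/wt libraries. The 5xFAD libraries were above both other genotypes, by 0.18 ± 0.06 over wild-type (adjusted p = 0.139). Summed over the pump genes, the level was 3991 to 4058 CPM in wild-type, 4163 to 4262 CPM in 5xFAD and 3945 to 4188 CPM in 5xFAD/Cd5l tg/wt libraries.

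Atp6v0d2, the d2 paralog of Atp6v0d1 known from osteoclasts and macrophages (chromosome 4, 19876841 to 19922605), was counted rarely. There were 0, 0 and 1 reads in the wild-type libraries, 12, 3 and 5 in the 5xFAD libraries and 14, 4 and 11 in the 5xFAD/Cd5l tg/wt libraries. With 1 read in the whole wild-type group, the ratio of 5xFAD to wild-type was 20.1 with an exact 95% counting interval of 3.22 to 833, which covers counting error only. Every library of the transgenic genotypes held more reads than every wild-type library. The ratio of 5xFAD/Cd5l tg/wt to wild-type was 29.3, with a counting interval of 4.86 to 1198. When the low-count filter was left out, Atp6v0d2 passed edgeR's test in 5xFAD (adjusted p = 0.00985) and in 5xFAD/Cd5l tg/wt (0.0011) against wild-type. Its level remained small beside that of Atp6v0d1, at 0.159 RPKM against 123 RPKM in 5xFAD libraries. Dcstamp, Ocstamp and Calcr, used as osteoclast markers, summed to at most 4.68 CPM in any library.

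The transcription factor genes of the family that drives lysosomal biogenesis did not pass in any comparison by edgeR, DESeq2 or limma-voom. Tfeb had 9.53, 8.03 and 9.54 CPM in wild-type, 8.01, 8.14 and 8.57 CPM in 5xFAD and 7.86, 7.22 and 8.18 CPM in 5xFAD/Cd5l tg/wt libraries. Tfe3 had 38.9, 34.3 and 34.5 CPM in wild-type, 33.6, 32.9 and 36.3 CPM in 5xFAD, and 34.6, 35.7 and 36.3 CPM in 5xFAD/Cd5l tg/wt libraries. The values of both factors overlapped between wild-type and 5xFAD, with log2 fold changes of -0.13 ± 0.14 for Tfeb and -0.07 ± 0.08 for Tfe3. Mitf had 11.3, 10.2 and 10.9 CPM in wild-type, 11.9, 11.1 and 12.5 CPM in 5xFAD and 9.25, 8.90 and 10.04 CPM in 5xFAD/Cd5l tg/wt libraries. Its libraries were lowest in 5xFAD/Cd5l tg/wt, at -0.33 ± 0.12 against 5xFAD (adjusted p = 0.137), the 1 comparison among these factors with an unadjusted p under 0.05. Activity of these factors is controlled by phosphorylation and nuclear entry, which transcript levels do not measure.

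**Figure D3:**
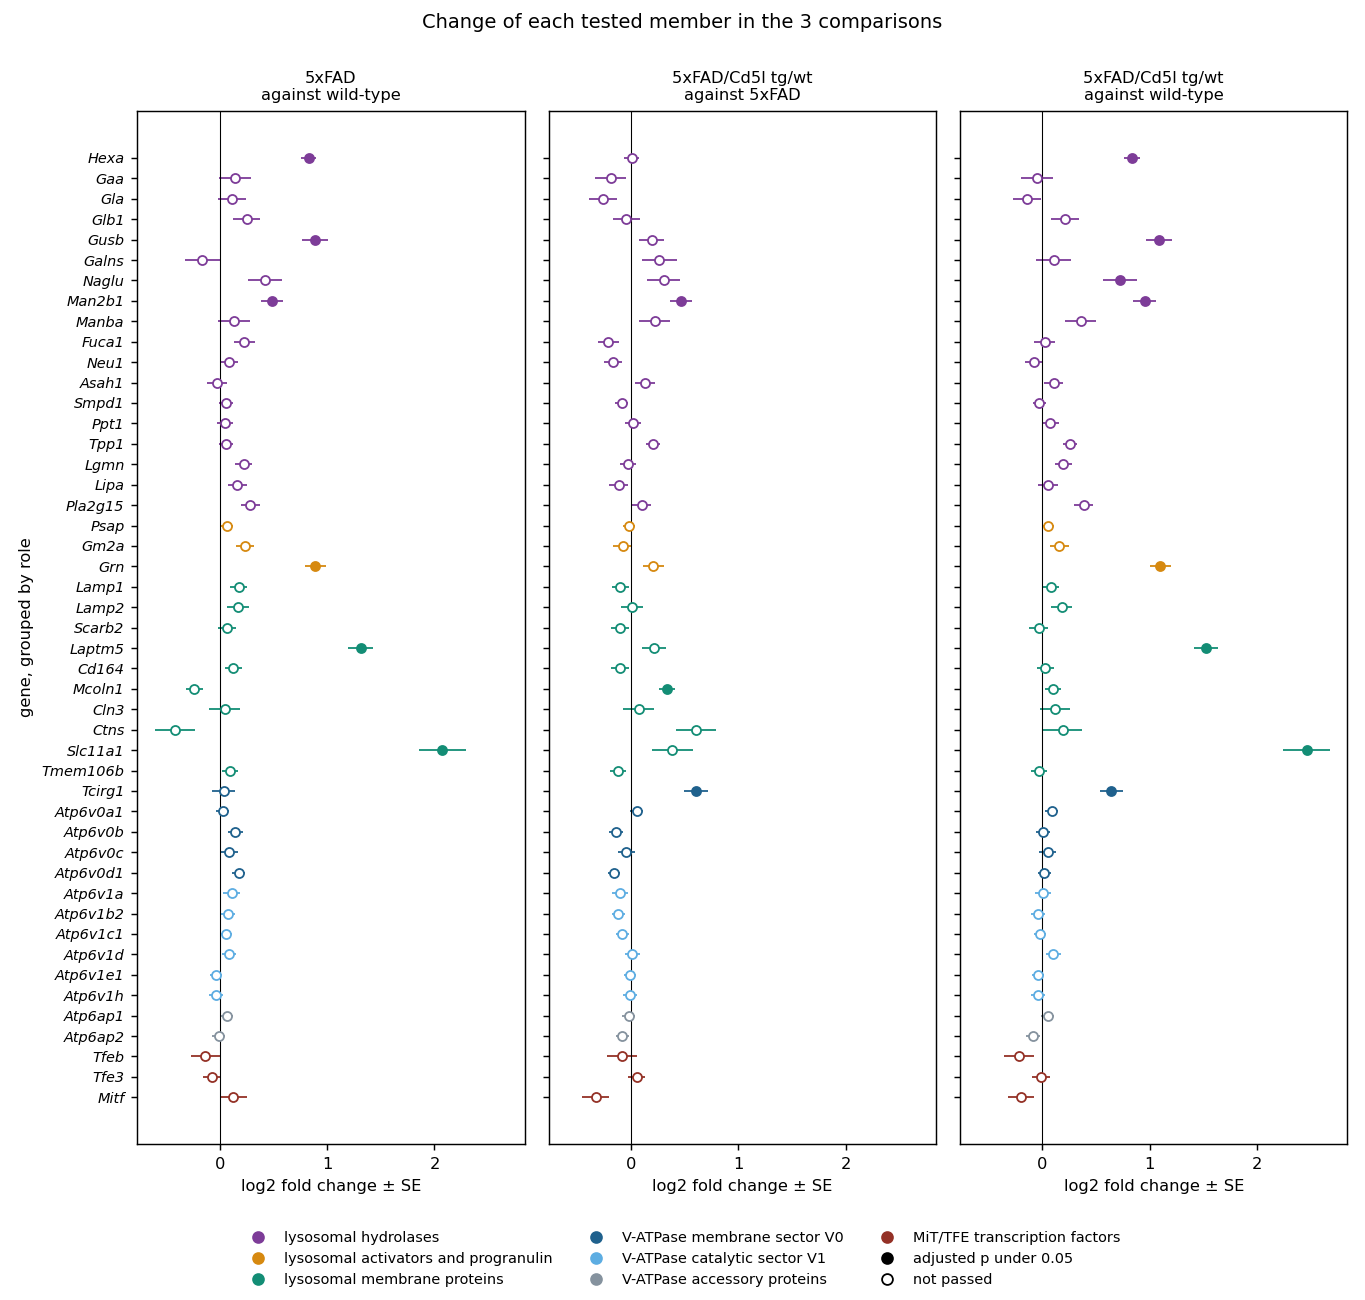
Log2 fold change ± SE of the 47 tested members in the 3 comparisons, on a shared axis and grouped by role, with filled symbols for an adjusted p under 0.05. Filled symbols number 6, 3 and 8 from left to right, all on the positive side, and the pump and transcription factor genes lie near 0 in the left panel.

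Promoters were searched for the letters of 3 elements to see what the members share in sequence: the E-box CACGTG, the longer CLEAR core TCACGTGA that contains it, and GAGGAAGT, a site of the myeloid factor PU.1. RefSeq promoters of the build GRCm38.p6, from 250 bases before to 50 bases after the start, were found for 42 of the 48 members, and both strands were searched. The E-box was present in 12 of 42 members (28.6%), against 8.09% of 27025 genes with a promoter of the same length, and the CLEAR core in 6 of 42 (14.3%), against 1.12%. The PU.1 letters occurred in 2 of 42 (4.76%), against 3.69%. Several genes in the table have more than 1 promoter, and a gene was counted once if any of them matched. Many lysosomal genes are known to share the CLEAR element, so that its higher share in a lysosomal set is no independent result. The 27025 genes were not limited to the 17575 tested here.

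The 6 members with the CLEAR core were Gla, Cd164, Mcoln1, Cln3, Atp6v0d1 and Atp6v1a. The stretches below, chosen after the matches were seen, show the core in capitals with 11 bases on either side, read 5′ to 3′ along the gene.
Gla (chrX:134601182-134601211, minus strand): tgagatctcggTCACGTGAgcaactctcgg
Cd164 (chr10:41519401-41519430, plus strand): cgccgggctgcTCACGTGAccggcgcgcgc
Mcoln1 (chr8:3500462-3500491, plus strand): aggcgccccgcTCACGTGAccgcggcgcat
Cln3 (chr7:126583340-126583369, minus strand): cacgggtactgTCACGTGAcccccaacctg
Atp6v0d1 (chr8:105566050-105566079, minus strand): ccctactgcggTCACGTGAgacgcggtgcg
Atp6v1a (chr16:44139373-44139402, minus strand): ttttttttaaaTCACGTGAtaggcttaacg
Gla has the core at a second position as well. Of these 6 genes 0 passed in 5xFAD against wild-type, and Mcoln1 alone passed in any comparison.

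The 6 members that rose in 5xFAD had no E-box in the window searched, while 1 of them, Gusb, held the PU.1 letters downstream of its start. Their last 80 bases before the start are shown because they are the proximal promoters of the genes that rose, and they hold none of the letters searched.
Hexa (chr9:59539460-59539539, plus strand): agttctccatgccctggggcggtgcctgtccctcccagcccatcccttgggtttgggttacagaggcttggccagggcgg
Gusb (chr5:130003050-130003129, minus strand): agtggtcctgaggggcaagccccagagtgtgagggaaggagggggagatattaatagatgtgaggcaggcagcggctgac
Man2b1 (chr8:85083189-85083268, plus strand): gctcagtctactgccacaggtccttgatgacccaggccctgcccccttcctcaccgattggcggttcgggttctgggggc
Grn (chr11:102430427-102430506, plus strand): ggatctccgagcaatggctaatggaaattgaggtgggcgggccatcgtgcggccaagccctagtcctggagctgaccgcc
Laptm5 (chr4:130913236-130913315, plus strand): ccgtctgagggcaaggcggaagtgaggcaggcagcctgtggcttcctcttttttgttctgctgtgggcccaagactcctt
Slc11a1 (chr1:74375123-74375202, plus strand): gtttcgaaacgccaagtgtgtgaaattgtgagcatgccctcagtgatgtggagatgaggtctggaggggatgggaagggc
Over the 9 members that passed in any comparison, 2 held an E-box (Naglu and Mcoln1), and over the 33 that passed in none and had a promoter in the table, 10 did. A match to these letters describes the sequence and does not show binding. Only the exact letters were searched, so that a missing match does not show that a variant of the element is absent.

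**Figure D4:**
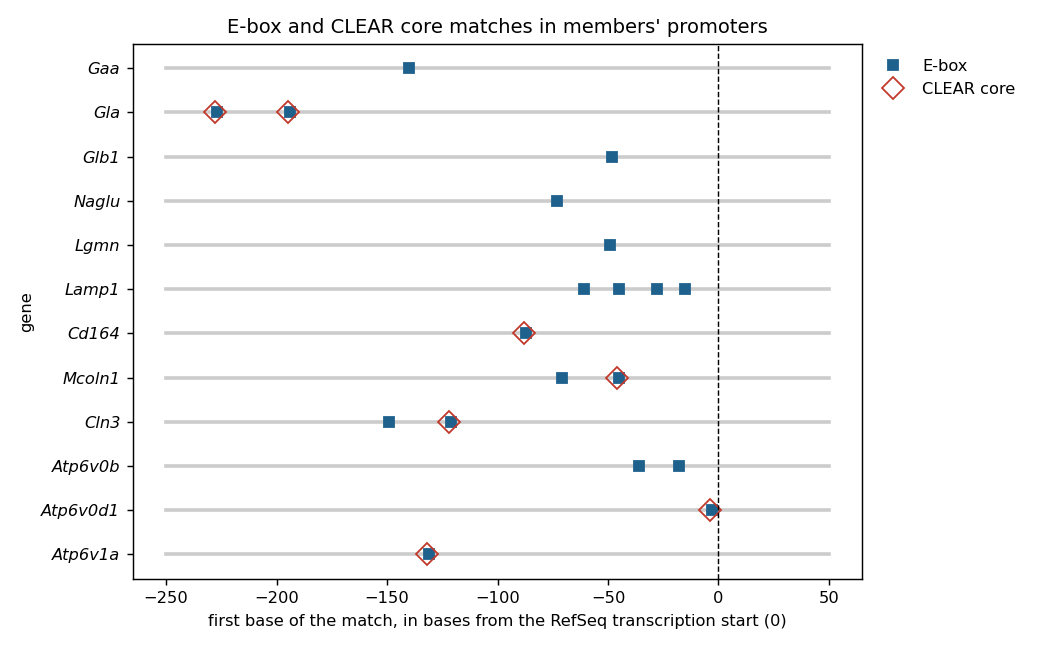
Position of E-box and CLEAR core matches in the promoters of the 12 members that hold one, in bases from the RefSeq transcription start. Grey lines mark the window searched, squares the E-box and open diamonds the CLEAR core, and all matches begin before the start.

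Other lysosomal genes were read from pathway lists for context. Of 12 tested cathepsin genes, the proteases of the same compartment, 8 rose and none fell in 5xFAD against wild-type, among them Ctsd at 1.30 ± 0.10, Ctss at 1.39 ± 0.11, Ctsz at 1.30 ± 0.14 and Ctsh at 0.87 ± 0.16. Their median log2 fold change was 0.64. Of 28 further hydrolases 2 rose, among them the nuclease gene Pld4 at 0.68 ± 0.15. Among 37 other membrane and sorting proteins 3 rose, the macrophage glycoprotein gene Cd68 at 2.22 ± 0.20, Cd63 at 0.51 ± 0.10 and the cholesterol carrier gene Npc2 at 0.45 ± 0.08. The remaining pump subunits and regulators (0 of 18) and genes of TFEB regulation and autophagy (0 of 44) had none that passed in edgeR's test, with medians of 0.03 and 0.01. At an unadjusted p under 0.05 there were 0 and 6 of them, and DESeq2 called 0 and 1.

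**Figure D5:**
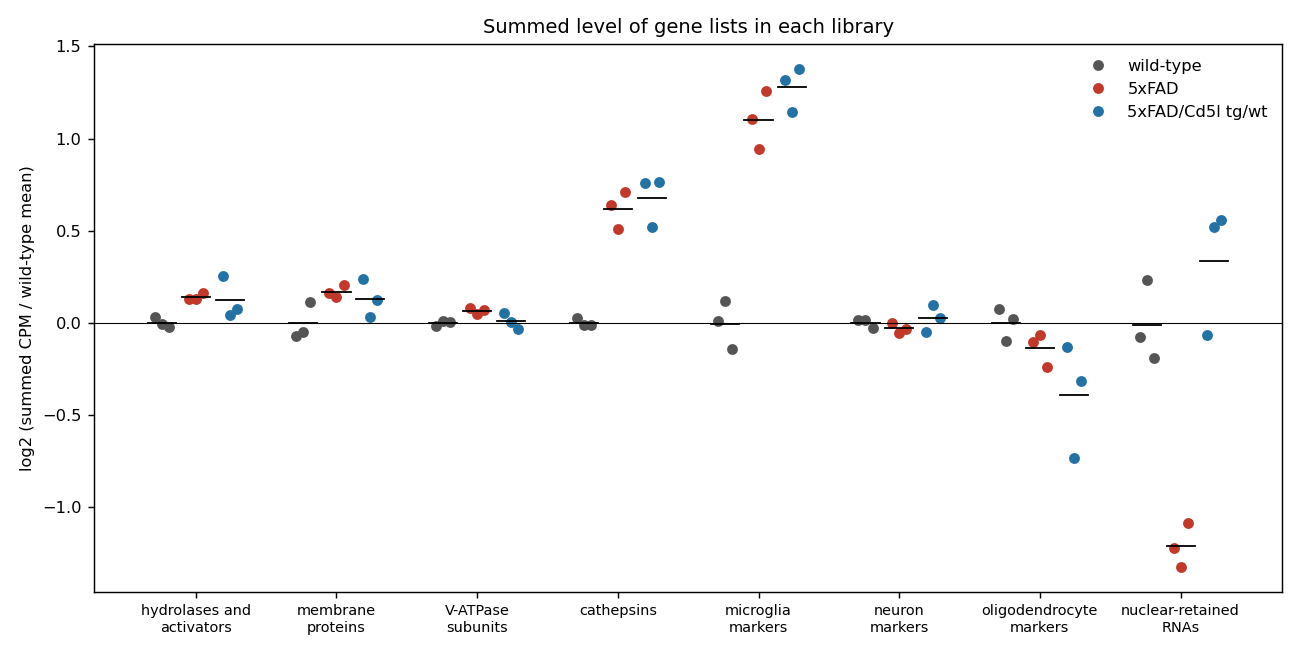
Summed CPM of gene lists in each library as log2 ratio to the wild-type mean. Points are libraries and short bars group means of the log2 ratios. Cathepsins and microglial markers lie above wild-type in every library of both transgenic genotypes, the pump and the hydrolases with activators (a sum in which Psap is the largest term) lie closer to 0, and nuclear-retained RNAs are low in the 5xFAD libraries.

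The Cd5l transgene was examined on the amyloid background, by setting 5xFAD/Cd5l tg/wt libraries against 5xFAD libraries. Of 47 members 3 rose and none fell: the pump gene Tcirg1, the hydrolase gene Man2b1 and the channel gene Mcoln1. Among all tested genes 5.34% rose and 0.888% fell, so that the share of members that passed was near that of all genes. In 4 members the 5xFAD/Cd5l tg/wt libraries were all higher than the 5xFAD libraries and in 7 all lower, against 16.6% and 12.1% of all tested genes. The median log2 fold change was -0.02 over the members and 0.01 over all genes, with 21 positive values, against 51% of all genes. This comparison and the one with wild-type use the same 5xFAD libraries, so that their values are not independent. The fit without the 3 libraries that stood apart leaves 1 5xFAD/Cd5l tg/wt library here and is no replicate check of these calls.

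Tcirg1 (chromosome 19, 3946050 to 3957133) had 12.7, 13.9 and 12.9 CPM in wild-type, 14.3, 13.4 and 12.8 CPM in 5xFAD and 21.2, 18.5 and 21.9 CPM in 5xFAD/Cd5l tg/wt libraries. Wild-type and 5xFAD overlapped (0.04 ± 0.11), and every 5xFAD/Cd5l tg/wt library was above both. The rise over 5xFAD was 0.60 ± 0.11 (adjusted p = 0.0073), and without 5xFAD library 2 the adjusted p was 0.0514. The ratio of Atp6v0a1 to Tcirg1 per length was 26.0 in wild-type mice, 25.9 in 5xFAD mice and 17.7 in mice with the Cd5l transgene, as Atp6v0a1 was at 0.05 ± 0.06 between the last 2. In the 12 other pump genes tested, the intervals against 5xFAD lay within -0.28 and 0.19, and 0 of them passed by edgeR, DESeq2 or limma-voom. Atp6v0d1 was the 1 with an unadjusted p under 0.05, at -0.16 ± 0.06 (adjusted p = 0.133). For Atp6v0d2 the ratio of 5xFAD/Cd5l tg/wt to 5xFAD was 1.46, with a counting interval of 0.798 to 2.72 that includes 1.

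Man2b1 rose by 0.46 ± 0.10 over 5xFAD (adjusted p = 0.0209), and its libraries did not overlap. It was the only member that passed in all 3 comparisons. Its adjusted p reached up to 0.130 in the fits that lost the call, which left out 5xFAD library 1 or 2 or the third 5xFAD/Cd5l tg/wt library, or removed a trend on gene length. Mcoln1 (chromosome 8, 3550457 to 3565232) had 56.6, 63.5 and 57.3 CPM in wild-type, 50.03, 50.2 and 50.5 CPM in 5xFAD and 66.6, 63.8 and 59.7 CPM in 5xFAD/Cd5l tg/wt libraries. The 5xFAD libraries were below both other genotypes, and the rise over 5xFAD was 0.33 ± 0.08 (adjusted p = 0.0233). It did not pass after removal of the length trend, without any 1 of the 5xFAD libraries, or when the second 5xFAD/Cd5l tg/wt library was left out (adjusted p up to 0.109).

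The same order of the genotypes was seen in 8 nuclear-retained RNAs such as Malat1, followed here as a possible sign of RNA quality. Their sum was 3258 to 4377 CPM in wild-type, 1486 to 1753 CPM in 5xFAD and 3554 to 5468 CPM in 5xFAD/Cd5l tg/wt libraries, 7 of 8 fell in 5xFAD against wild-type and 8 of 8 rose with the Cd5l transgene. Endothelial and pericyte markers had it too, with 3 of 8 falling in the first and 5 of 8 rising in the second comparison, and sums of 262 to 286, 172 to 209 and 286 to 318 CPM. The part of either list in the values of Mcoln1 and Ctns was not tested, and neither was its part in the calls of Tcirg1, Man2b1 and the other members. Of the 15 microglial markers 0 passed between 5xFAD/Cd5l tg/wt and 5xFAD by edgeR, DESeq2 or limma-voom, and 6 were higher in 5xFAD/Cd5l tg/wt at an unadjusted p under 0.05. Of 9 neuronal markers 0 passed in edgeR's test, while DESeq2 and limma-voom each called 1. At an unadjusted p under 0.05, 2 were higher and 1 lower. All 6 oligodendrocyte markers had negative values, and 0 passed.

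The 5 other members that rose in 5xFAD did not pass between the transgenic genotypes. Hexa was at 0.01 ± 0.07, with a 95% confidence interval from -0.15 to 0.16. Gusb was at 0.19 ± 0.12 (interval -0.06 to 0.45), Grn at 0.21 ± 0.10 (interval 0.0009 to 0.42, adjusted p = 0.223), Laptm5 at 0.21 ± 0.11 (-0.03 to 0.45) and Slc11a1 at 0.39 ± 0.19 (-0.02 to 0.80). The intervals of Gusb, Grn, Laptm5 and Slc11a1 leave room for a rise, so that equal levels were not shown. Ctns was at 0.61 ± 0.19 (adjusted p = 0.0778) with overlapping libraries. Tpp1, the tripeptidyl peptidase, was at 0.20 ± 0.07 (adjusted p = 0.0902), with 74.5, 76.5 and 75.6 CPM in 5xFAD and 84.4, 85.4 and 90.7 CPM in 5xFAD/Cd5l tg/wt libraries.

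Gaa, the acid alpha-glucosidase that degrades glycogen, varied widely among the 5xFAD/Cd5l tg/wt libraries. They had 505, 321 and 313 CPM, against 405, 448 and 445 CPM in 5xFAD and 429, 383 and 364 CPM in wild-type libraries. Libraries 2 and 3, which had the lowest sums of oligodendrocyte markers, were below and library 1 above all others. The log2 fold change against 5xFAD was -0.19 ± 0.15 (adjusted p = 0.481) and passed as lower without library 1 (0.00359). With libraries 2 and 3 left out only library 1 remains, so that no direction can be read from that fit. The part of the oligodendrocyte markers in this spread was not tested.

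In the pathway lists, 0 of 12 cathepsins and 0 of 28 further hydrolases passed between 5xFAD/Cd5l tg/wt and 5xFAD in edgeR's test. At an unadjusted p under 0.05 there were 2 and 4 of them, and DESeq2 called 0 and 2. Log2 fold changes were positive in 11 and negative in 1 of the cathepsins. In the further hydrolases 21 were positive and 7 negative, against 51% positive over all genes. The medians were 0.19 and 0.14, against 0.01 over all genes, so that unchanged levels were not shown. Tpcn2, a channel of the lysosomal membrane, rose by 0.93 ± 0.22 and the potassium and proton channel gene Tmem175 by 0.43 ± 0.11, as 2 of 37 membrane and sorting proteins. Optn, an autophagy receptor, rose by 0.57 ± 0.14 and Fnip1, a partner of folliculin in control of TFEB, by 0.29 ± 0.08, as 2 of 44 genes of TFEB regulation and autophagy. Among all tested genes 5.34% rose in this comparison. The share that rose in either of these lists was near that of all genes. Of 18 further pump genes 0 passed by edgeR, DESeq2 or limma-voom, and 2 had an unadjusted p under 0.05.

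Against wild-type, 5xFAD/Cd5l tg/wt mice had 8 members that rose and none that fell, where 1.38% of all tested genes rose and 0.199% fell. Libraries did not overlap in 11 members that were higher and 2 that were lower, against 7.93% and 6.53% of all genes. Positive log2 fold changes were seen in 33 members, against 50.2% of all genes, and the medians were 0.08 and 0.00. With the 3 libraries that stood apart left out, 1 5xFAD/Cd5l tg/wt library is set against 2 wild-type libraries, and the 9 members past the threshold there describe that library. The 8 were Laptm5 at 1.52 ± 0.11, Slc11a1 at 2.46 ± 0.22, Grn at 1.10 ± 0.10, Gusb at 1.08 ± 0.12, Man2b1 at 0.95 ± 0.10, Hexa at 0.84 ± 0.07, Naglu at 0.72 ± 0.16 and Tcirg1 at 0.64 ± 0.11. These wild-type libraries are the ones set against 5xFAD above, and the sums of microglial and astrocyte markers given there apply here, with 14 of 15 microglial markers and 1 of 7 astrocyte markers risen. Of 9 neuronal and 6 oligodendrocyte markers 0 passed in edgeR's test, and DESeq2 called 1 of each. At an unadjusted p under 0.05, 3 neuronal markers were lower and 1 higher, and 4 oligodendrocyte markers were lower. The part of any of these markers in the rises was not tested.

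Naglu (chromosome 11, 100960838 to 100968498) had 10.9, 8.63 and 8.02 CPM in wild-type, 11.4, 10.7 and 14.9 CPM in 5xFAD and 15.4, 14.5 and 15.7 CPM in 5xFAD/Cd5l tg/wt libraries. Its 5xFAD libraries lay between and overlapped both other genotypes. The adjusted p of 0.0403 against wild-type passed in 10 of 21 alternative analyses and reached 0.182 in the others, which include upper-quartile and total-count scaling and the fit with a single 5xFAD/Cd5l tg/wt library. It did not pass without any 1 of wild-type libraries 2 and 3, 5xFAD libraries 1 and 2 and the second and the third 5xFAD/Cd5l tg/wt libraries. The promoter of Naglu holds an E-box without the full core, shown in capitals here.
Naglu (chr11:101070009-101070038, plus strand): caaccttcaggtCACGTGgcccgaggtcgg
Tcirg1 had an adjusted p of 0.00796 against wild-type, and of 0.0580 when the third 5xFAD/Cd5l tg/wt library was left out.

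Counted over the 3 comparisons, 38 of the 47 tested members passed in none, 2 in 1 (Naglu and Mcoln1), 6 in 2 and Man2b1 in all 3. The comparisons share libraries, so that calls in 2 or 3 of them are not independent. Shares of all genes are given above for each comparison and were not counted over the 3 together. The calls of Man2b1 in the comparisons with 5xFAD libraries were lost in some fits, as given above. The 38 include every tested pump gene except Tcirg1, both activators, the 3 transcription factors, Lamp1, Lamp2, Scarb2, Cd164, Cln3, Ctns, Tmem106b and the hydrolase genes Gaa, Gla, Glb1, Galns, Manba, Fuca1, Neu1, Asah1, Smpd1, Ppt1, Tpp1, Lgmn, Lipa and Pla2g15. Several of them cause storage diseases in humans when lost, such as Gaa (Pompe disease), Gla (Fabry disease) and Smpd1 (Niemann-Pick disease). Their log2 fold changes in 5xFAD against wild-type ran from -0.42 (Ctns) to 0.29 (Pla2g15).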

How the data were processed

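The authors deposited 1 table of unnormalized read counts per gene for the 9 libraries, with gene coordinates and lengths. The submitters' processing notes name the build GRCm39 (mm39). The sources used here name no aligner or counting tool and do not say whether strand was used. Genes with low counts were removed with filterByExpr of edgeR (at least 10 counts, and 15 in total), and the remaining 17575 were tested, with TMM scaling factors of 0.987 to 1.02, by the quasi-likelihood method with 1 coefficient per genotype (edgeR 4.0.16, R 4.3.3), with Benjamini-Hochberg adjustment over all tested genes and a threshold of 0.05. The SE is the absolute log2 fold change divided by the square root of F. CPM use scaled library sizes, and RPKM divide them by the deposited gene length. The method was also run on counts simulated from its own fitted levels and spread. Those counts hold no libraries that stand apart, so that they do not test the calls that were lost when a library was left out.

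Members and lists were chosen with earlier results of these data known. All 48 members are accounted for, and not every gene of the pathway lists that passed is reported here by name. Those that passed, the 3 transcription factors and Atp6v0d2 have every library's value, and of the others those with the smallest p in a role were named. Lamp1, Psap, Gaa, Ctns, Tpp1 and Gm2a were named after their values were seen. Each library is titled as 1 mouse. The p-values rest on the spread between mice of the same genotype, pooled over the 3 genotypes and moderated across genes. Same-numbered libraries correlated at -0.100 to 0.154 after removal of genotype means and were not paired. The alternatives were other scalings (RLE, upper-quartile, total count), no filter, 1 CPM in 3 libraries, DESeq2 1.42.0, limma-voom (limma 3.58.1), only the 6 libraries compared, a replicate block, length offsets, leaving out globin, ribosomal RNA and mitochondrial genes, thresholds of 0.01 and 0.1, removal of the 3 libraries that stood apart, and of each library in turn. Promoter sequences are from RefSeq (GRCm38.p6) and were used without their coordinates being set against the counts. Figures were drawn with matplotlib 3.10.9.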

Additional observations from a re-analysis of the deposited data

How the results depend on the processing

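Each of the 3 counts of members was recomputed under 21 alternatives. In 5xFAD against wild-type the count of 6 ran from 5 to 10, with 10 without the 3 libraries that stood apart and 5 to 6 when any 1 library was left out. Hexa, Gusb, Grn, Laptm5 and Slc11a1 passed in all 21 in this comparison and against wild-type in 5xFAD/Cd5l tg/wt mice. In 5xFAD/Cd5l tg/wt against 5xFAD the count of 3 became 1 with length offsets (Tcirg1), 1 at an adjusted p under 0.01 and 5 at an adjusted p under 0.1, and it ran from 0 to 5 when 1 library was left out: 0 without 5xFAD library 2, 1 without 5xFAD library 1, and 5 without 5xFAD/Cd5l tg/wt library 1, where Ctns was added as higher and Gaa as lower. The cause was not tested. The value for Gaa in this comparison was 0.21 without the 3 libraries that stood apart, a fit that leaves 1 5xFAD/Cd5l tg/wt library and takes its sign from that library alone. In 5xFAD/Cd5l tg/wt against wild-type the count of 8 ran from 6 to 11, and from 6 to 8 when 1 library was left out. With the replicate block the counts were 6, 3 and 7, and Naglu no longer passed. The numbers of all genes that passed varied more: 615 in the first comparison, 206 to 850 when 1 library was left out, 1154 without the 3 libraries and 1354 without a filter; 1095 in the second, 278 to 2069, 630 and 2063; 277 in the third, 158 to 686, 360 and 1062. The 630 and 360 rest on 1 5xFAD/Cd5l tg/wt library. At thresholds of 0.01 and 0.1 they were 197 and 958, 339 and 1940, and 147 and 417, and the third comparison had 452 with DESeq2 and 176 in a fit of its 6 libraries. Over the 21 alternatives the median log2 fold change of all genes was at most 0.0212 in absolute value in any comparison. Depth limited Atp6v0d2, with 1 wild-type read.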
